A study of Mus musculus with 16 samples.

Results

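A set of 4 genes that responded to diet was followed through FGFR4 knockdown (KD) in mouse liver: *Gpc1*, *Serpina6*, *Slc17a4* and *Slco2a1*. They are 4 of the 52143 genes in the count table and were taken by their symbols, as genes with a clear difference between mice on high-fat diet (HFD) and mice on chow. RNA came from the livers of 16 male C57BL6/J mice, 4 in each group, which were 6 weeks old when they were placed on chow or HFD for 12 weeks. Every 2 weeks the mice were injected with saline (groups Chow and HFD) or received an *Fgfr4* siRNA at 3 mg/kg (groups Chow/FGFR4 KD and HFD/FGFR4 KD). The siRNA carried N-acetylgalactosamine (GalNAc), a sugar that hepatocytes take up, so the KD was directed at these cells and not at the others in the liver. No group received a control siRNA, so the siRNA as such and the loss of FGFR4 cannot be told apart. The question was whether the diet shift of the 4 genes held under KD, library by library. Because the genes were chosen on HFD against Chow in saline-injected mice, that difference is given as a description. Tests compared the 8 KD libraries. The main fit (limma-voom) held all 16 libraries and pooled their spread, so the saline libraries also entered its error. Results from all 4 groups were known when the genes were chosen, so the 8 KD libraries are not shown to be independent of the choice. The p-values of the 4 genes under KD are to be read with these limits.

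The 4 genes act at the cell surface or in the blood. *Gpc1* encodes glypican-1, a proteoglycan held in the membrane by a lipid anchor, whose heparan sulfate chains bind growth factors. *Serpina6* encodes corticosteroid-binding globulin, a serpin without inhibitor activity that the liver secretes and that carries glucocorticoids in plasma. *Slc17a4* and *Slco2a1* encode membrane carriers, the first for organic anions such as urate in a family that began with phosphate carriers, the second for prostaglandins, which it takes up so that they can be broken down inside the cell.

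All 4 genes passed the filter on low values, which kept 11324 genes for testing. Total counts per library ran from 3445949 to 5976449. *Fgfr4*, the target of the siRNA, was at 21.8 to 36.3 CPM (counts scaled to library size with TMM factors) in the 8 saline libraries and at 2.43 to 6.17 CPM in the 8 KD libraries. With limma-voom and Benjamini-Hochberg adjustment it was lower by a log2 change of -2.62 on chow (adjusted p 0.000223) and of -2.78 on HFD (adjusted p 9.06e-05). HFD/FGFR4 KD 1 stood apart from its group: on the first principal component of the 500 most variable genes it scored -6.33, within the range of the chow libraries (-23.2 to -4.84), while HFD/FGFR4 KD 2, 3 and 4 lay between 16.7 and 20.5. Its *Fgfr4* level was 2.82 CPM, low as its label says. The gene *Gm42418* held 22.3% of the counts of this library, against 14.3%, 16.2% and 13.7% in HFD/FGFR4 KD 2, 3 and 4. That share ran from 11.1% to 15.6% in HFD and from 13.4% to 22.7% in Chow. Its part in the place of the library was not tested. The main results for the 4 genes are given with and without HFD/FGFR4 KD 1.

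*Gpc1* (ENSMUSG00000034220) lies on chromosome 1 from 92831645 to 92860779, plus strand, in GRCm38. Its level was 5.54, 3.65, 5.48 and 4.02 CPM in the 4 Chow libraries and 43.9, 34.8, 49.1 and 36.9 CPM in the 4 HFD libraries. In Chow/FGFR4 KD it was 4.56, 5.03, 6.05 and 4.69 CPM, and in HFD/FGFR4 KD 16.9, 34.1, 43.0 and 28 CPM. Every HFD/FGFR4 KD library lay far above every Chow/FGFR4 KD library, and the library numbered 1 was the lowest of its group. Means under KD were 5.08 ± 0.678 CPM (SD, n = 4) on chow and 30.5 ± 11 CPM on HFD, a ratio of 6. The log2 change with diet under KD was 2.52 (SE 0.341, adjusted p 0.000970, limma-voom), the 13th smallest p of all genes tested. Counts behind the chow values were low, from 14 to 27 in Chow and from 17 to 23 in Chow/FGFR4 KD. Of the 31-base words of its transcripts, 18.4% are found in other genes too, and the genes that overlap it had at most 2.36 counts in any library.

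*Serpina6* (ENSMUSG00000060807), on the minus strand of chromosome 12 from 103646630 to 103657212, was at 81.0, 81.7, 96.3 and 85.5 CPM in Chow and at 236, 233, 217 and 243 CPM in HFD. Under KD it was at 99.5, 70.9, 62.4 and 68.4 CPM on chow and at 101, 165, 186 and 165 CPM on HFD. The KD groups did not overlap, but HFD/FGFR4 KD 1, at 101 CPM, was only just above Chow/FGFR4 KD 1, at 99.5 CPM, while the other 3 HFD libraries were well clear. Means under KD were 75.3 ± 16.6 CPM on chow and 154 ± 37.2 CPM on HFD (SD, n = 4). The log2 change was 1.01 (SE 0.166, adjusted p 0.00488, limma-voom). It had no 31-base word in common with another gene.

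*Slc17a4* (ENSMUSG00000021336), on the minus strand of chromosome 13 from 23895890 to 23915009, was at 27.9, 26.9, 30.4 and 32.2 CPM in Chow and at 92.2, 69.2, 76.9 and 58.8 CPM in HFD. Under KD it was at 36.9, 25.8, 33.0 and 20.1 CPM on chow and at 42.5, 62.6, 64.6 and 64.3 CPM on HFD. In *Slc17a4*, 3 of the HFD/FGFR4 KD libraries lay close together and library 1 lay between them and the chow libraries. Means under KD were 29 ± 7.46 and 58.5 ± 10.7 CPM (SD, n = 4), and without library 1 the second was 63.8 ± 1.05 CPM (n = 3). The log2 change under KD was 1.02 (SE 0.188, adjusted p 0.0102, limma-voom).

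*Slco2a1* (ENSMUSG00000032548), on the plus strand of chromosome 9 from 102988712 to 103096002, was the gene that was lower on HFD. Its level was 101, 102, 82.7 and 112 CPM in Chow and 26.1, 20.05, 25.8 and 31.1 CPM in HFD. Under KD it was 75.2, 105, 75.8 and 90.1 CPM on chow and 57.5, 30.9, 69.6 and 52.1 CPM on HFD. All 4 HFD/FGFR4 KD libraries were below all 4 Chow/FGFR4 KD libraries, but by a narrow margin, 69.6 against 75.2 CPM, and they spread widely, from the HFD range in library 2 to near the chow range in library 3. Means under KD were 86.5 ± 14.1 and 52.5 ± 16.2 CPM (SD, n = 4). The log2 change was -0.76 (SE 0.195, adjusted p 0.0455, limma-voom). Here HFD/FGFR4 KD 1 was not the library nearest to chow. Without HFD/FGFR4 KD 2 the value was -0.52 (adjusted p 0.111), and the adjusted p was highest, at 0.113, without Chow/FGFR4 KD 2.

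**Figure D1:**
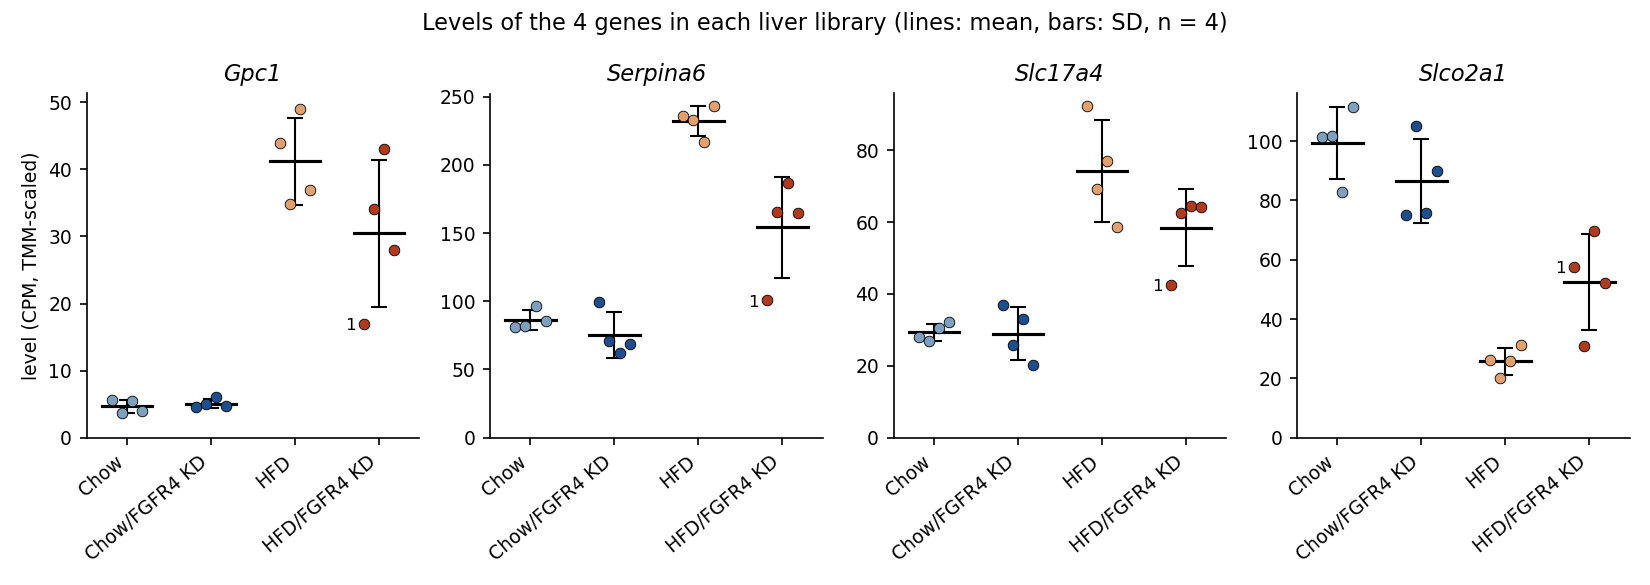
Level of each gene (CPM, scaled with TMM factors) in the 16 liver libraries by group, on axes from 0. Points are libraries, lines are means and bars are SD (n = 4 per group), and HFD/FGFR4 KD 1 is marked 1. In all 4 genes the HFD/FGFR4 KD points lie outside the range of the Chow/FGFR4 KD points.

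The promoter of *Slco2a1* is shown because the RefSeq promoter table (GRCm38.p6) matched 1 of the 4 genes by symbol, and this was the gene. The 250 bases before its RefSeq start are chr9:103008237-103008486, plus strand. This window lies inside the annotated span of the gene (102988712 to 103096002) and not before its first base. The annotation holds 4 transcripts of the gene, and the start used in these livers was not tested. Capitals mark a GC box (GGGCGG) and a TATA box (TATAAA).

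Slco2a1 promoter: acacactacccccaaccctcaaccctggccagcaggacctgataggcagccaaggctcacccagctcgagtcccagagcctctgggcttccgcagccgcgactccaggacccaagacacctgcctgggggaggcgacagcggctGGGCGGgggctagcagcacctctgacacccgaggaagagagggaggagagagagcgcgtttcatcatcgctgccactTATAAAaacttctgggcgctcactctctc

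The TATA box begins 29 bases before the start and the GC box begins 106 bases before it. Among the 32851 promoters of the table, in the same window and on either strand, 12.4% hold TATAAA and 32.7% hold GGGCGG. The GC content of the window was 63.2%, against a median of 52.4% over all promoters. The letters CACGTG (E-box, in 6.02% of promoters), TTANGTAA (D-box, 2.06%), TTCNNNGAA (a STAT5 site, 7.02%) and AGAACA (a glucocorticoid half-site, 16.1%) did not occur in it on either strand. These are matches of letters and not sites shown to be bound.

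Under KD, then, 3 genes rose with HFD and 1 fell, each in the direction by which it had been chosen in saline mice. A call needed p under 0.05 and an adjusted p under 0.25, and 2293 of the 11324 genes met it (20.2%; 10.1% higher and 10.1% lower). All 4 also had an adjusted p under 0.05, as did 3.10% of genes. For *Slco2a1*, at 0.0455, this was lost in 16 of 27 alternative fits. Among them were the replicate block (0.0630), upper quartile scaling (0.0553) and the limma-voom fit of only the compared groups (0.107). That last fit, which left out the saline libraries, gave adjusted p values of 0.0165 for *Gpc1*, 0.0366 for *Serpina6* and 0.0363 for *Slc17a4*. The KD groups did not overlap in 4 of 4 genes, and in 11.5% of all genes tested (5.93% higher on HFD, 5.61% lower). The exact permutation test over the 8 KD libraries gave p = 0.0286 (two-sided) for each gene, the smallest that 4 libraries against 4 allow. As the genes were picked as clear diet responders, this separation may in part restate the choice. Without HFD/FGFR4 KD 1 the log2 changes were 2.78 for *Gpc1*, 1.20 for *Serpina6*, 1.16 for *Slc17a4* and -0.81 for *Slco2a1*, and all 4 stayed called (largest adjusted p 0.0380). In liver tissue, a change in the RNA of a gene per cell and a change in the number of cells that make it cannot be told apart.

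In saline-injected mice the log2 changes with diet, by which the genes were chosen, were 3.10 (SE 0.334) for *Gpc1*, 1.43 (SE 0.163) for *Serpina6*, 1.32 (SE 0.180) for *Slc17a4* and -1.96 (SE 0.203) for *Slco2a1*. Here 26% of all genes were called (13.3% higher, 12.7% lower) and 16.1% did not overlap. The changes under KD were smaller in size in all 4 genes. The difference of the diet changes, KD minus saline, was -0.58 (SE 0.477) for *Gpc1*, -0.42 (SE 0.232) for *Serpina6*, -0.31 (SE 0.260) for *Slc17a4* and 1.20 (SE 0.282) for *Slco2a1*. These differences hold the libraries that chose the genes, and so carry no test.

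**Figure D2:**
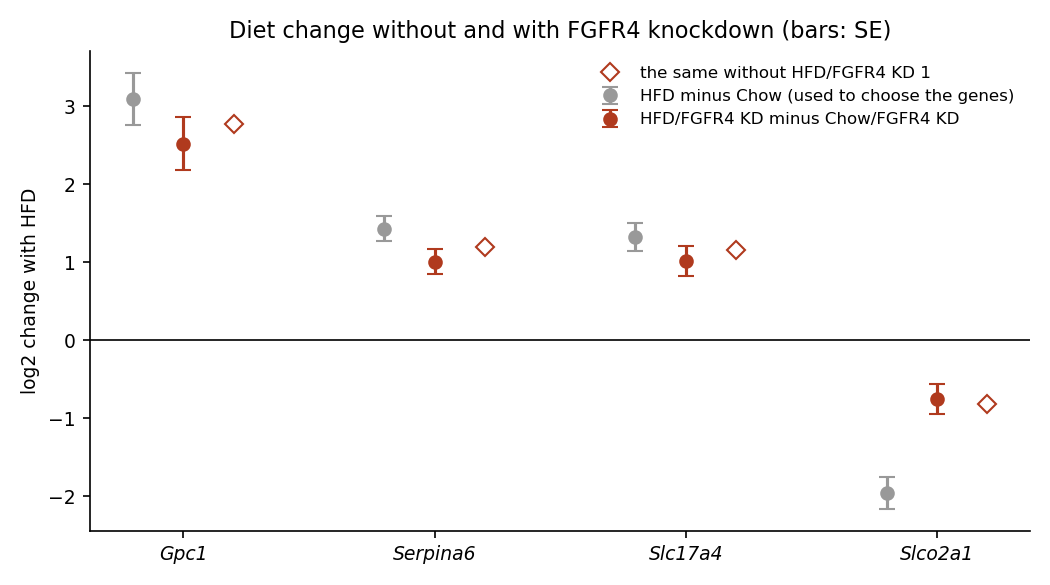
Log2 change with HFD for each gene, in saline mice (grey), under KD (red) and under KD without HFD/FGFR4 KD 1 (open diamonds); bars are SE from limma-voom. Each gene keeps its direction under KD, and the value for *Slco2a1* moves from -1.96 to -0.76.

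On mean log2 CPM (with a prior count of 2), the share of the saline diet shift that was present under KD was 79.7% for *Gpc1*, 71.2% for *Serpina6*, 77.8% for *Slc17a4* and 39.2% for *Slco2a1*. For the 1038 other genes that differed with diet in saline mice at an adjusted p under 0.05, the median share was 58.9% (quartiles 35.7% and 80.8%), and 94.7% moved in the same direction under KD. The 3 genes that rose thus lay in the upper part of this range and *Slco2a1* in the lower part: 28.8% of the other diet genes had a lower share than *Slco2a1*, and 73.0% had a lower share than *Gpc1*. Without HFD/FGFR4 KD 1 the shares were 88.0%, 84.7%, 88.9% and 42.5% in the same order, and the median of the other diet genes was 68.9%. Both the 4 genes and the 1038 were selected for their shift in saline mice, so these shares are descriptions.

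Each KD library was then placed between the mean of Chow (0) and the mean of HFD (1) on log2 CPM. HFD/FGFR4 KD 1 was at 0.588 for *Gpc1*, 0.159 for *Serpina6*, 0.405 for *Slc17a4* and 0.400 for *Slco2a1*, with 0.324 as the median of the other diet genes. *Serpina6* in this library was therefore close to chow, and the other 3 genes lay between the diets. Libraries 2, 3 and 4 of the group were at 0.915, 1.02 and 0.823 for *Gpc1*, at 0.658, 0.780 and 0.656 for *Serpina6* and at 0.828, 0.862 and 0.856 for *Slc17a4*, with medians of the other diet genes of 0.817, 0.677 and 0.754. The 3 genes that rose were thus nearer to HFD than to chow in each of these libraries. *Slco2a1* was at 0.858, 0.260 and 0.473 in the same libraries. In library 3, *Gpc1* had its highest place of the group and *Slco2a1* its lowest.

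**Figure D3:**
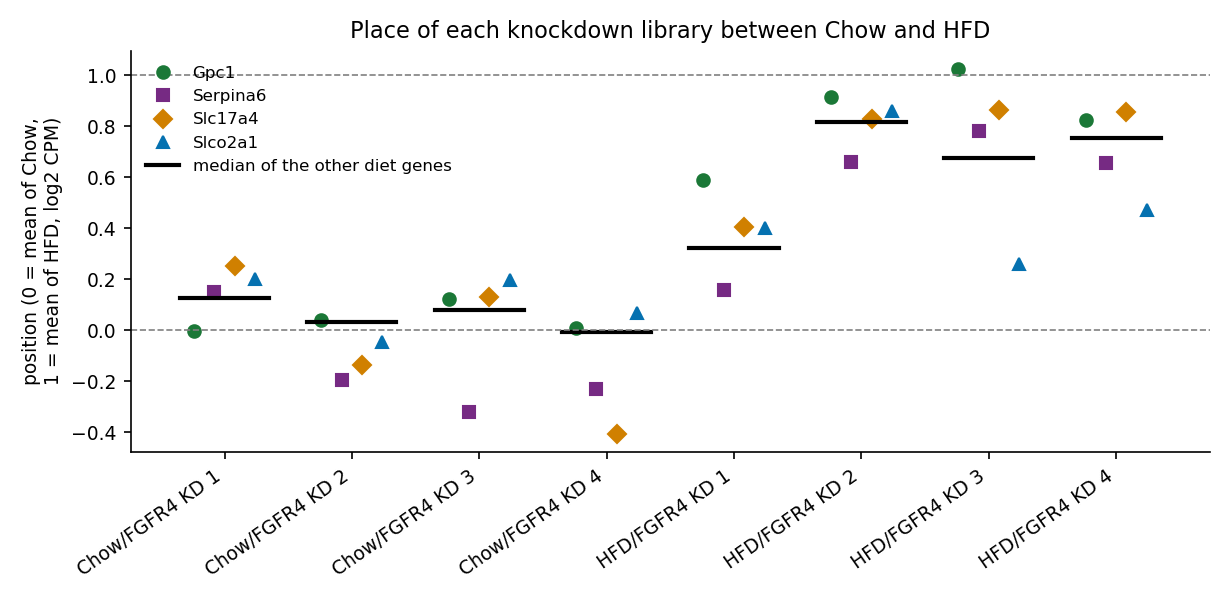
Place of each KD library between the mean of Chow (0) and the mean of HFD (1) on log2 CPM, for the 4 genes (symbols) and the median of the 1038 other diet genes (black lines). The Chow/FGFR4 KD libraries scatter around 0, HFD/FGFR4 KD 1 lies between the diets, and *Slco2a1* in HFD/FGFR4 KD 3, at 0.260, is far below the other 3 genes.

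The effect of KD within each diet is a description too, since the saline libraries chose the genes. On HFD, the mean level with KD was 74.0% of that without KD for *Gpc1*, 66.5% for *Serpina6* and 78.8% for *Slc17a4*, and 204% for *Slco2a1*. Log2 changes were -0.48 (SE 0.196), -0.62 (SE 0.159), -0.35 (SE 0.165) and 1.001 (SE 0.210). Each mean with KD lay on the chow side of the mean without KD. Without HFD/FGFR4 KD 1, a comparison added after the data were seen, the levels were 85.0%, 74.2%, 85.9% and 197%, with log2 changes of -0.23, -0.43, -0.20 and 0.94, so the values for *Gpc1* and *Slc17a4* shrank by over 1.5 times. The groups overlapped in all but *Serpina6*, whose HFD/FGFR4 KD libraries (101 to 186 CPM) were all below its HFD libraries (217 to 243 CPM); 6.49% of all genes did not overlap in this comparison, and 3.14% were called. *Slco2a1* overlapped by a single library, HFD/FGFR4 KD 2, at 30.9 CPM against 31.1 CPM in HFD 4. On chow, log2 changes with KD were 0.09 (SE 0.435) for *Gpc1*, -0.20 (SE 0.169) for *Serpina6*, -0.04 (SE 0.201) for *Slc17a4* and -0.20 (SE 0.188) for *Slco2a1*. The groups overlapped in all 4 genes on chow, where 2.52% of all genes did not and 0.00883%, which is *Fgfr4*, were called.

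Per kilobase of longest transcript, *Serpina6* had the highest level of the 4 genes, with means of 53.7 CPM per kb in Chow and 145 CPM per kb in HFD. *Gpc1* had the lowest on chow, at 1.12 CPM per kb, and reached 9.86 CPM per kb in HFD. *Slco2a1* was at 14.0 CPM per kb in Chow and 3.62 in HFD, so on HFD *Gpc1* was above *Slco2a1* and on chow below it. Under KD on HFD their levels were alike, at 7.30 ± 2.62 for *Gpc1* and 7.38 ± 2.27 CPM per kb for *Slco2a1* (SD, n = 4), and did not differ beyond their spread. Without library 1 they were 8.39 ± 1.81 and 7.14 ± 2.72 CPM per kb (n = 3), the reverse order, again within their spread.

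Relatives of the 4 genes were read from 9 lists of families and pathways, which name 167 genes, of which 120 passed the filter. Under KD, 39 of the 120 were called with diet, 15 higher and 24 lower, which is 32.5% against 20.2% of all genes. In saline mice 46 were called (15 higher, 31 lower; 38.3% against 26%), and 22 were called in both comparisons. At an adjusted p under 0.05, 5 of the 120 passed under KD and 28 in saline mice, against 3.10% and 9.20% of all genes. The count under KD moved when single libraries were left out. It was 45 of 121 without HFD/FGFR4 KD 1, and 25, 25 and 19 of 120 without HFD/FGFR4 KD 2, 3 and 4. Calls among all genes moved with it, to 2546 of 11405, 1486 of 11373, 1453 of 11358 and 1189 of 11366 in the same order. Adjusted p values below are from limma-voom with Benjamini-Hochberg adjustment over all genes.

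Among glypicans, only *Gpc4* passed the filter besides *Gpc1*. *Gpc4* was at 38.8 ± 4.88 CPM in Chow/FGFR4 KD and 41.0 ± 10.5 CPM in HFD/FGFR4 KD, with a log2 change of 0.06 (SE 0.145, adjusted p 0.855). Of 26 genes of heparan sulfate synthesis and other proteoglycans, 4 rose and 2 fell with diet under KD. Over all genes, 20.2% were called. The median log2 change of the 26 was 0.13 against -0.01 over all genes. *Extl1*, a glycosyltransferase of heparan sulfate, rose from 3.31 ± 1.12 to 8.83 ± 2.60 CPM (log2 1.41, adjusted p 0.0333), without overlap. *Sulf2*, which removes sulfates from heparan sulfate outside the cell, rose by a log2 change of 1.25 (adjusted p 0.138). *B3gat3*, an enzyme of the linker that joins the chain to the protein, fell by 0.42 (adjusted p 0.0903), and the membrane proteoglycan *Sdc4* fell by 0.50 (adjusted p 0.111). In saline mice *Extl1* and *Sulf2* were higher on HFD as well, by log2 changes of 2.12 (adjusted p 0.00180) and 1.87 (adjusted p 0.00713).

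Of 25 other liver serpins tested, 4 fell under KD and none rose, where 10.1% of all genes were called lower and 10.1% higher. Taken in either direction, this was a smaller share than the 20.2% called among all genes. In saline mice 4 rose, as *Serpina6* did, and 12 fell, a larger share than the 26% called among all genes. Without HFD/FGFR4 KD 1, 9 fell under KD and none rose, where 2546 of 11405 genes were called. The inhibitor *Serpina3k* fell from 8387 ± 817 to 3946 ± 2494 CPM (log2 -1.26, adjusted p 0.0678), and the protease inhibitor *Serpine2* fell by 1.20 on the log2 scale (adjusted p 0.0648). *Serpina1e*, an alpha-1-antitrypsin gene, had a log2 change of -2.12 (adjusted p 0.111) under KD and of -4.73 (adjusted p 0.00106) in saline mice. It shares 54.2% of its 31-base words with other genes, so its level is uncertain. *Serpina3c* had a log2 change of -0.96 (adjusted p 0.173). The gene for another hormone carrier, *Serpina7* (thyroxine-binding globulin), named here after its values were seen, rose in saline mice (log2 1.83, adjusted p 0.0138) and had a log2 change of 0.55 (SE 0.424, adjusted p 0.503) under KD. Per kilobase, *Serpina1c* was the highest serpin of the list, at a mean of 4282 CPM per kb. It shares 85.8% of its 31-base words with other genes, so its level and this rank are uncertain.

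The hormone that corticosteroid-binding globulin carries acts through the glucocorticoid receptor. Of 13 genes of this receptor and of steroid handling, 1 rose and 5 fell under KD, where 20.2% of all genes were called. *Akr1d1*, a steroid reductase that also serves bile acid synthesis, rose from 113 ± 15.6 to 200 ± 38.1 CPM (log2 0.82, adjusted p 0.00520), without overlap; in saline mice its log2 change was 0.19 (adjusted p 0.392). *Srd5a1*, which clears glucocorticoids by reduction, fell by 0.41 (adjusted p 0.111), and *H6pd*, which supplies the cofactor to the enzyme that regenerates active glucocorticoid, fell by 0.45 (adjusted p 0.126). The receptor chaperone *Hsp90aa1* fell by 0.75 (adjusted p 0.0902), with 51.5% of its words shared. The receptor gene *Nr3c1*, named although it was not called, had a log2 change of 0.14 (SE 0.127, adjusted p 0.575).

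Of 22 glucocorticoid target genes, 1 rose and 7 fell under KD, where 20.2% of all genes were called. Their median log2 change was -0.33. *Cdkn1a*, a cell cycle inhibitor, fell from 40.4 ± 7.11 to 18.5 ± 4.39 CPM (log2 -1.16, adjusted p 0.0508), and was at 18.5 CPM in Chow and 17.5 CPM in HFD. The metallothionein gene *Mt1* fell by 3.60 (SE 0.998, adjusted p 0.0613) and *Mt2* by 4.35 (SE 1.37, adjusted p 0.0917), with *Mt1* from 76.1 to 627 CPM among the Chow/FGFR4 KD libraries. *Pck1*, of gluconeogenesis, fell by 0.51 (adjusted p 0.0920) under KD and by 0.65 (adjusted p 0.0189) in saline mice.

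In the family of *Slc17a4*, 6 other genes were tested. Under KD 2 rose and 1 fell, where 20.2% of all genes were called. *Slc17a1*, which carries urate and phosphate, rose from 8.37 ± 1.42 to 13.2 ± 1.69 CPM (log2 0.67, adjusted p 0.0640), without overlap, and had a log2 change of 0.15 (adjusted p 0.676) in saline mice. *Slc17a3*, another urate carrier, fell by 0.35 (adjusted p 0.234). *Slc17a8*, a vesicular glutamate carrier, rose by a log2 change of 1.41 (adjusted p 0.166), with HFD/FGFR4 KD libraries from 19.1 to 102 CPM. Per kilobase, *Slc17a2* was the highest of these 6, at 31.2 CPM per kb, and *Slc17a4* was at 13.3 CPM per kb in HFD/FGFR4 KD.

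Of 13 genes of urate and phosphate handling, 3 rose and 3 fell under KD, where 20.2% of all genes were called. The phosphate carrier *Slc20a1* rose from 20.05 ± 7.09 to 39.1 ± 3.80 CPM (log2 1.07, adjusted p 0.0298), and by a like 1.10 (adjusted p 0.0125) in saline mice. *Xdh*, whose enzyme makes urate, rose by a log2 change of 0.34 (adjusted p 0.153). *Pnp*, of purine breakdown, fell by 0.68 (adjusted p 0.0333), and the urate exporter *Abcg2* fell by 0.29 (adjusted p 0.119).

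In the family of *Slco2a1*, 2 of 6 other tested genes rose under KD and none fell, where 10.1% of all genes rose. Without HFD/FGFR4 KD 1, 1 of the 6 rose. *Slco2b1* rose from 130 ± 6.45 to 154 ± 4.83 CPM (log2 0.25, adjusted p 0.0754) and *Slco1b2*, the member with the highest level per kilobase (254.9 CPM per kb), by 0.30 (adjusted p 0.144). Both carry organic anions into hepatocytes. *Slco1a1*, a carrier of bile acids and steroid conjugates, had a log2 change of -0.96 (SE 0.618, adjusted p 0.407), and of -2.68 (adjusted p 0.0148) in saline mice.

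Of 9 tested genes that make, break down or bind prostaglandins, 2 rose and 3 fell under KD, where 20.2% of all genes were called. *Hpgd*, the dehydrogenase that inactivates the prostaglandins that SLCO2A1 takes up, rose from 41.6 ± 9.69 to 80.1 ± 12.7 CPM (log2 0.95, adjusted p 0.0215), without overlap. In saline mice its log2 change was 0.51 (adjusted p 0.118), which also passed the threshold. The synthases *Ptges2* (log2 -0.47, adjusted p 0.205) and *Ptges3* (log2 -0.23, adjusted p 0.224) and the reductase *Ptgr1* (log2 -1.04, adjusted p 0.206) fell under KD; *Ptges3* is also on the list of steroid handling, as a cochaperone of the receptor.

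**Figure D4:**
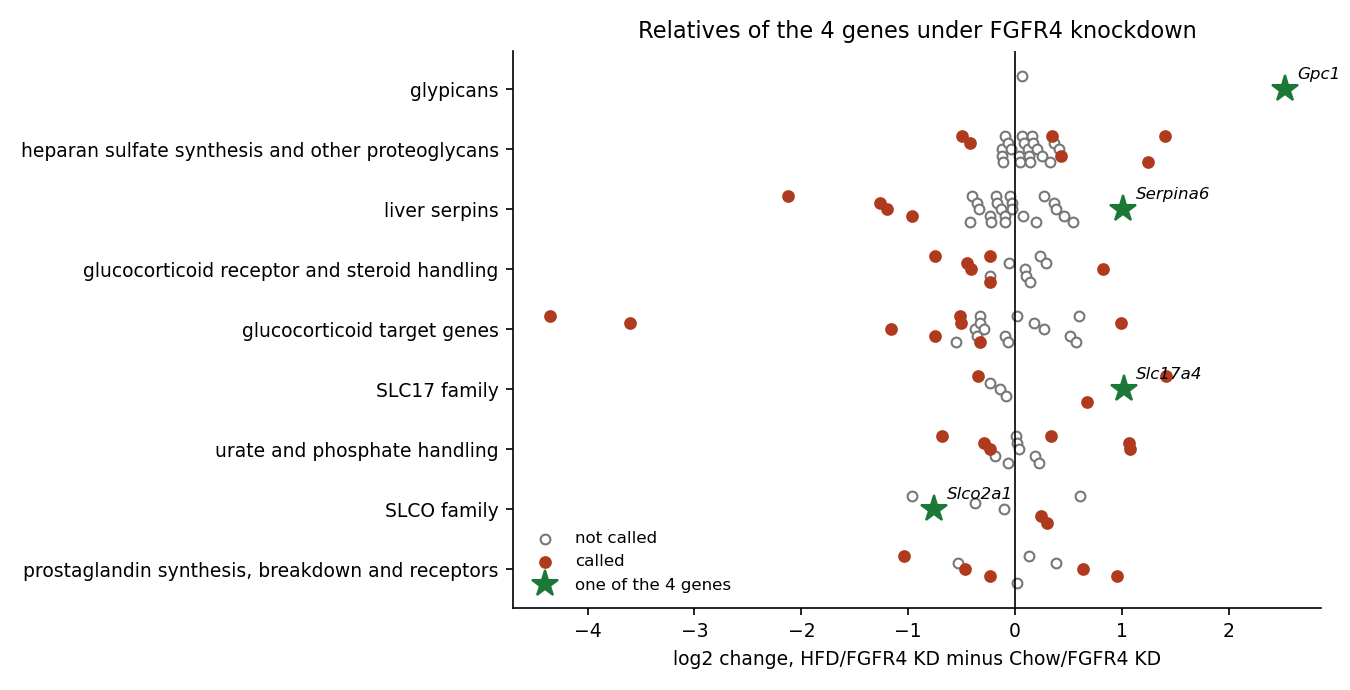
Log2 change with diet under KD of the tested genes of each list (circles; red, called at p under 0.05 and adjusted p under 0.25) with the 4 genes as green stars in the lists of their families. *Gpc1* lies to the right of every listed relative, and *Serpina6* is the rightmost serpin.

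The genes whose log2 CPM followed each of the 4 most closely over the 16 libraries were also named. For *Gpc1* they were *Slc16a5* (Pearson r 0.961), *Cntnap1* (0.956) and *Agxt2* (0.956). For *Serpina6* they were *Bdh1* (0.959), *Bche* (0.958) and *Arsa* (0.955), and for *Slc17a4* they were *Bdh1* (0.972), *Bche* (0.961) and *Agxt2* (0.961). *Bdh1* and *Bche* stood in the lists of both *Serpina6* and *Slc17a4*, and *Agxt2* in those of both *Gpc1* and *Slc17a4*. *Bdh1*, of ketone body metabolism, went from 115 ± 25.4 to 201 ± 38.8 CPM between the KD groups, and *Bche*, a secreted cholinesterase, from 58.5 ± 11.4 to 97.8 ± 13.5 CPM. For *Slco2a1* the closest were *Srd5a1* (0.935), *Cdhr5* (0.923) and *Kyat1* (0.918). *Srd5a1* was at 82.3 CPM in Chow, 74.3 in Chow/FGFR4 KD, 42.7 in HFD and 56.6 in HFD/FGFR4 KD, the same order of groups as *Slco2a1*. The most opposite gene was *Rack1* for *Gpc1* (r -0.977) and *Serpina6* (r -0.952), *Rplp0* for *Slc17a4* (r -0.976) and *Bckdhb* for *Slco2a1* (r -0.937); *Rack1* and *Rplp0* encode proteins of the ribosome. The libraries split by diet, so r is high for any gene that separates the diets, and it is given without a test.

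Markers of cell types were counted beside the 4 genes. Over all genes, 13.3% were called higher and 12.7% lower on HFD in saline mice. Under KD, 10.1% were called higher and 10.1% lower. Hepatocyte markers summed to between 67755 and 86403 CPM in every library. Of 9 tested, 4 were called lower and none higher on HFD in saline mice. Under KD 1 was called higher and 2 lower, or 1 and 3 without HFD/FGFR4 KD 1. Of 12 macrophage and Kupffer cell markers tested, 11 were higher on HFD in saline mice and 4 under KD (11 without HFD/FGFR4 KD 1), with sums of 95.0 to 97.9 CPM in Chow, 114 to 155 in Chow/FGFR4 KD, 160 to 284 in HFD and 138 to 238 in HFD/FGFR4 KD, where library 1 was the lowest. Stellate cell markers were called higher in 6 of 11 in saline mice and in 2 of 11 under KD, or 4 without HFD/FGFR4 KD 1 (sums 153 to 237, 127 to 209, 243 to 399 and 177 to 273 CPM), and endothelial markers in 6 of 14 and 1 of 14 (231 to 303, 137 to 283, 272 to 306 and 215 to 277 CPM). No lymphocyte marker of 8 passed the filter. Of 7 cholangiocyte markers 2 passed. The adipocyte markers *Adipoq*, *Plin1*, *Lep* and *Retn* had at most 4 counts in any library. The other 3, *Cidec*, *Cfd* and *Fabp4*, are therefore not shown to come from adipocytes here. All 3 were called higher on HFD in saline mice, and 2 of them under KD, where *Cidec* had a log2 change of 1.29 (adjusted p 0.552). With KD on HFD, *Cidec* and *Cfd* fell by 2.29 (adjusted p 0.185) and 1.57 (adjusted p 0.228), and neither was called without HFD/FGFR4 KD 1. The sum of these 3 was 4.43 to 28.8 CPM in Chow, 4.57 to 16.7 in Chow/FGFR4 KD, 45.8 to 115 in HFD and 14.2 to 42.9 in HFD/FGFR4 KD. The part of these cells in the levels of the 4 genes was not tested.

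Clock genes moved with diet. Of 16 tested, 8 rose and 5 fell with diet under KD, and 7 rose and 5 fell in saline mice. *Dbp* was at 0.397 to 1.60 CPM in Chow/FGFR4 KD and 13.7 to 34.5 CPM in HFD/FGFR4 KD (log2 4.34, adjusted p 0.0249), *Per3* rose by a log2 change of 2.77 (adjusted p 0.0211), *Tef* rose by 1.16 (adjusted p 0.00488) and *Cry1* fell by 1.33 (adjusted p 0.00520). The hour at which livers were taken is not given in the sources used here, and its part in the diet shift of the 4 genes was not tested.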

How the data were processed

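The authors deposited estimated counts per gene, made from liver reads trimmed with fastp, pseudoaligned with kallisto and summed with tximport (GRCm38; the transcript release is not given in the sources used here). Between 7.81% and 11.1% of the values of a library were not whole. Symbols matched 98.3% of identifiers. Genes under 1 CPM in more than 4 of the 16 libraries were left out. TMM scaling (edgeR 4.0.16) was followed by a limma-voom fit (limma 3.58.1, R 4.3.3) with a mean for each of the 4 groups. Benjamini-Hochberg adjustment was over all 11324 genes, and the threshold for calls followed the methods of the study. The steps were tested on simulated data. Library totals set the precision, and p-values measure the spread between mice.

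The 4 genes, the lists and the tests were chosen with earlier results of these data known. Genes named besides the 4 are, from each list, at most 4 of those called in either diet comparison by smallest p under KD, the family member with the highest level per kilobase of the longest GENCODE transcript, and the closest and most opposite genes by Pearson r. Shared words were counted over 31 bases. As alternatives, DESeq2 1.42.0 on rounded counts and the quasi-likelihood test of edgeR were run, with other scalings and filters, library quality weights, a replicate block and leaving out each library. Among the pairs of libraries within a group, none was a copy (chi-square over its degrees of freedom was at least 7.59). Python 3.11.15 was used for the remaining steps.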

Additional observations from a re-analysis of the deposited data

Results flagged for a closer look

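In groups of 4 libraries, a library was listed where its gap to the nearest other library, divided by the range of the group, passed Dixon's 95% critical value. Of 50 groups examined, 7 passed, where chance gives about 1 in 20, or 2.5 groups. Both of the first 2 concern the same library. *Slc17a4* was at 42.5 CPM in HFD/FGFR4 KD 1, with the other 3 libraries from 62.6 to 64.6 CPM. On the first principal component the same library scored -6.33, with the other 3 between 16.7 and 20.5. The other 5 are sums of marker genes. Hepatocyte markers summed to 70948 CPM in Chow 1, below the rest of Chow. Macrophage and Kupffer cell markers summed to 284 CPM in HFD 2, above the rest of HFD. Cholangiocyte markers, of which 2 were tested, summed to 31.03 CPM in Chow 3, below the rest of its group, and to 56.0 CPM in Chow/FGFR4 KD 4, above the rest of its group. Adipocyte markers, of which 3 were tested, summed to 28.8 CPM in Chow 3, above the rest of Chow.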

How the results depend on the processing

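The diet change under KD kept its direction and its call for *Gpc1*, *Serpina6*, *Slc17a4* and *Slco2a1* under each alternative. There were 112 alternatives over the 4 genes together. For each gene, 16 left out a single library and 12 changed another setting. Calls were at p under 0.05 and an adjusted p under 0.25. The alternative with a stricter threshold was the main fit read at an adjusted p under 0.05. Leaving out a saline library keeps the compared libraries the same, so those alternatives say little about the 4 genes. Leaving out single libraries gave log2 changes from 2.30 to 2.78 for *Gpc1*, from 0.90 to 1.20 for *Serpina6*, from 0.86 to 1.16 for *Slc17a4* and from -0.92 to -0.52 for *Slco2a1*. With counts scaled by library totals alone, the exact permutation p was 0.0571 for *Serpina6* and *Slco2a1* in place of 0.0286, and the median log2 change of all genes moved to 0.29 in saline mice and 0.14 under KD; 82.8% of calls under KD were then higher, against 50.1%, and 61.4% with upper quartile scaling. With 1 library left out, 4 against 3, that test cannot go below 0.0571.

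The number of genes called moved with the setting. At an adjusted p under 0.05 it was 351 with diet under KD, 1042 with diet in saline mice and 31 with KD on HFD, and among the relatives 5 under KD and 28 in saline mice. Without a filter, 5324 genes were called in saline mice. With KD on HFD, 230 genes were called by edgeR, 114 with library totals and 776 with quality weights, and with KD on chow 2 by DESeq2, 3 with library totals and 2 when only the compared groups were fitted. Leaving out single libraries gave from 1189 (without HFD/FGFR4 KD 4) to 2546 (without HFD/FGFR4 KD 1) genes with diet under KD, 2420 to 3076 in saline mice, 89 (without HFD 3) to 605 (without HFD 2) with KD on HFD and 1 to 2 on chow; 138 were called with KD on HFD without HFD/FGFR4 KD 1. Among the relatives the ranges were 19 to 45 and 40 to 49.

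Replicate numbers mark no shared animal, and deviations of same-numbered libraries did not correlate in the diet comparison under KD (r from -0.205 to -0.020). With the replicate number as a block, the log2 change was 2.50 for *Gpc1* and -0.75 for *Slco2a1*, and no call of the 4 genes changed.

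Depth limits *Gpc1* most, with 14 to 27 counts in chow libraries.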
